A study of Mus musculus with 24 samples.

Results

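The comparison described here set the hearts of 3 wildtype mice, taken at the end of 30 minutes of ischemia and never reperfused (I30), against the hearts of 3 sham-operated wildtype mice. These are 6 of the 24 arrays of a study of the clock gene Per2 in myocardial ischemia, and the arrays were taken by their labels, not by their values. All mice were male, of C57BL6 background and 12 to 16 weeks old, were kept with 14 h of light and 10 h of darkness a day and were operated at ZT 0, the start of the light phase. The labels give anesthesia and catheters for all mice and call the controls both untreated and sham operated, without saying what the sham operation held. In the operated mice the chest was opened under ventilation, and for ischemia the left coronary artery was closed with hanging weights. The hearts were flushed with cold saline, and the labels name the sample of each I30 mouse as ischemic left ventricle. Each array measured RNA of 1 left ventricle, with 3 arrays in each of 8 groups. The other wildtype groups had preconditioning, in which ischemia and reperfusion alternated every 5 min over 4 cycles (IP0), or reperfusion for 60 min after ischemia of 30 min (I30R60). The same 4 treatments were given to Per2-/- mice, which lack functional Per2 in every tissue, so that their I30 hearts were compared with their own sham hearts. Values are log2 intensities on microarrays normalized by robust multichip averaging (RMA), where 1 unit is a 2-fold difference. They are compared between hearts within a gene and not between genes, and they carry no detection calls. With the chosen probe set of each gene, 18820 genes were tested with limma, and a gene was called at a Benjamini-Hochberg adjusted p under 0.05.

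A heart muscle cell without blood flow stops oxidizing fatty acids, its usual fuel, and falls back on glycogen and glycolysis. Transcript levels change with a delay, so after a short ischemia a measured change can come from new transcription or from decay of existing RNA. The genes that follow stress first are the immediate early genes, which need no new protein for their transcription, such as the AP-1 subunits Jun and Fos and the AP-1 related factor Atf3. PPAR-alpha is the nuclear receptor that keeps the genes of fatty acid use active in heart muscle, and Nrf2 is the factor best known for keeping genes of glutathione synthesis active. In bulk tissue, fewer cells of a type and less RNA per cell cannot be told apart.

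Of the genes tested, 449 were called after I30 (2.39%), of which 226 were higher (1.2%) and 223 lower (1.18%). Leaving out 1 array moved these counts, to 38 genes without sham replicate 1, 164 without sham replicate 2, 155 without sham replicate 3 and 165 without I30 replicate 1. The changes were small. The median log2 change of the called rises was 0.58 and that of the called falls -0.50, and 27 genes changed at least 2-fold (0.143% of all genes), 14 higher (0.0744%) and 13 lower (0.0691%). In all 449 genes the 3 I30 hearts lay on 1 side of the 3 sham hearts, as did 24.7% of all genes tested. Of the called genes 423 are protein coding, 9 are microRNA genes (3 higher, 6 lower) and 4 are small nucleolar RNA genes (1 higher, 3 lower). The largest rises were Scgb1a1, Sftpc, Selp, Atf3, Cyp2f2, Pramel19, Ppp1r3c and Otud1, and the largest falls were Mir27b, Mir24-1, Ucp3, Aqp8, Mir30e, Mir23b, Ehhadh and Prnd.

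**Figure D1:**
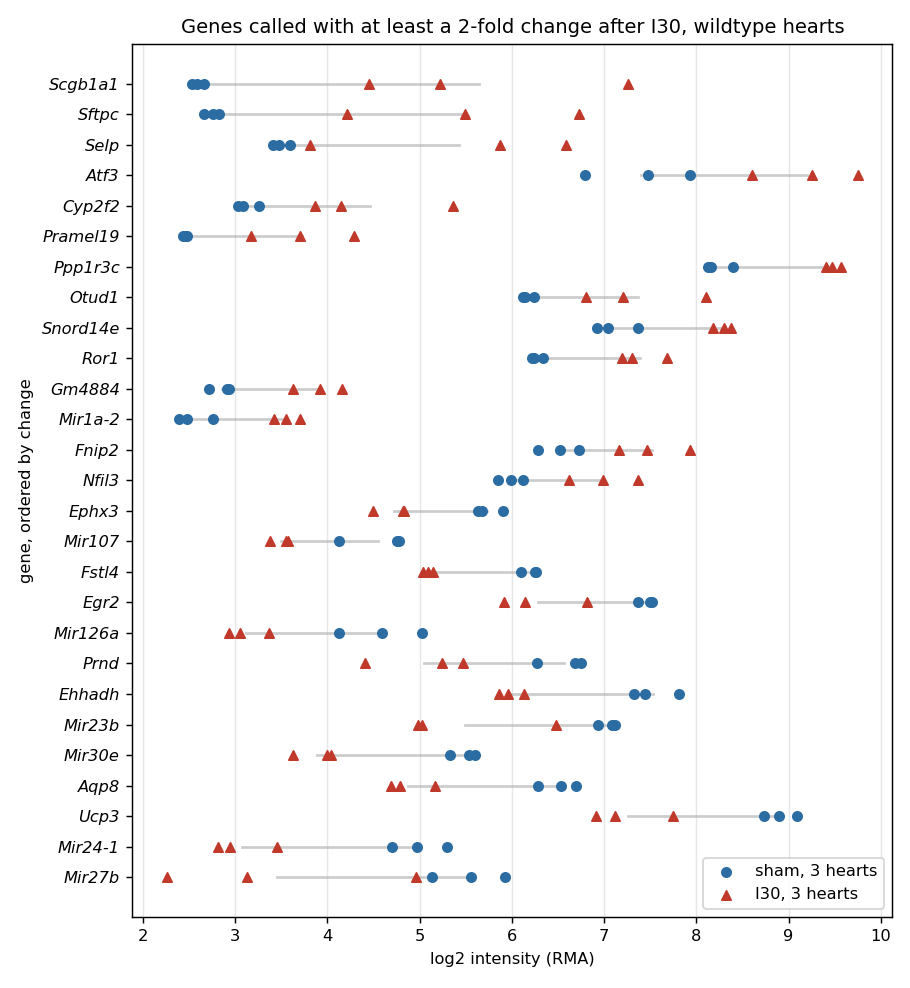
Log2 intensity of the 27 genes called with at least a 2-fold change, with 3 wildtype sham hearts as circles and 3 wildtype I30 hearts as triangles, and a grey line between the group means. The groups do not overlap in any of the 27 genes, and the I30 hearts spread widely in Scgb1a1, Sftpc, Selp and Mir27b.

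MicroRNAs are short RNAs that lower the output of messenger RNAs carrying a match to the seed, bases 2 to 8 of the mature microRNA. The sequences below are shown because 6 of the 13 falls of at least 2-fold are microRNA genes, and because some of them share a seed with genes that changed less or rose. They are RefSeq entries of build GRCm38.p6, 5′ to 3′, with the seed in capitals. The first is from the gene Mir27b at chr13:63300712-63300784, the next from Mir27a at chr8:84208672-84208758, and both carry the same seed. The third is identical for Mir24-1 at chr13:63301208-63301275 and Mir24-2 at chr8:84208815-84208921. The entry for Mir23b at chr13:63300484-63300557 holds the 5p arm. miR-30e-5p comes from chr4:120772606-120772697 and miR-384-5p from chrX:105344282-105344369, and they share a seed. miR-126a-3p comes from chr2:26591357-26591429, inside Egfl7, and miR-107-3p from chr19:34820687-34820773, inside Pank1.
miR-27b-3p: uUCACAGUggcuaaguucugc
miR-27a-3p: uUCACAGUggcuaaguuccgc
miR-24-3p: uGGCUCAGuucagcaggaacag
miR-23b-5p: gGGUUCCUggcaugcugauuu
miR-30e-5p: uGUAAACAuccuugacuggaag
miR-384-5p: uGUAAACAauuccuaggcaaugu
miR-126a-3p: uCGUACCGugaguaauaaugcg
miR-107-3p: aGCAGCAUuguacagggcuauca

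Mir23b, Mir27b and Mir24-1 lie next to each other on chromosome 13 inside the gene Aopep, an aminopeptidase, and all 3 fell. A probe set on this array covers the hairpin region, so a value can come from the primary transcript, the hairpin or the mature microRNA. Mir24-1 had log2 values of 4.70, 4.97 and 5.30 in the sham hearts and 2.81, 2.95 and 3.45 in the I30 hearts. It fell by 1.92 (standard error 0.28, adjusted p = 0.0033), 3.78-fold. Mir23b had values of 6.94, 7.12 and 7.08 in sham hearts and 5.02, 4.98 and 6.48 in I30 hearts, a fall of 1.55 (standard error 0.37, adjusted p = 0.0328). Mir27b had values of 5.56, 5.13 and 5.92 in sham hearts and 2.26, 3.13 and 4.96 in I30 hearts, a change of -2.09 (standard error 0.55, adjusted p = 0.049). For Mir23b and Mir27b, I30 replicate 3 lay far above the other I30 hearts and near the lowest sham heart. The call of Mir27b was lost without any one of sham replicates 1, 2 and 3 and I30 replicates 1 and 2, with changes between -2.29 and -1.49 and adjusted p values between 0.0793 and 0.188, and the call of Mir23b was lost without the same 5 arrays, with adjusted p values between 0.0764 and 0.115. The host transcript Aopep fell by 0.50 (standard error 0.11, adjusted p = 0.0208), a smaller change than that of the 3 microRNA genes.

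No gene of the related cluster on chromosome 8 was called, and the 2 clusters were not tested against each other. Mir27a had means of 5.23 in sham and 4.53 in I30 hearts and differed by -0.69 (adjusted p = 0.112, standard error 0.23). Mir23a had a difference of -0.51 (standard error 0.25, adjusted p = 0.262) and Mir24-2 one of -0.41 (standard error 0.23, adjusted p = 0.343). All 6 genes of both clusters thus had negative differences, with a median of -1.12 against 0.01 over all genes tested. The 3 called (50%, against 2.39% of all genes tested) lie side by side in 1 host gene. The list of the 2 clusters was chosen with earlier results of these data known, so its share is a description.

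The chromosome 13 microRNAs were lower after I30 than after I30R60, whereas none of their differences from IP0 passed. Mir24-1 had a mean of 4.04 after IP0 and 5.38 after I30R60, and its I30 level was lower than that of the I30R60 hearts by 2.31 (standard error 0.28, adjusted p = 6.27e-05), whereas the difference from IP0 was -0.97 (adjusted p = 0.0637). The differences from IP0 were -0.78 for Mir23b (standard error 0.37, adjusted p = 0.23) and -1.35 for Mir27b (standard error 0.55, adjusted p = 0.168). Mir23b was lower in I30 than in I30R60 hearts by 1.83 (adjusted p = 0.00577) and Mir27b by 2.40 (adjusted p = 0.0137). The I30R60 hearts had means of 7.32 for Mir23b and 5.85 for Mir27b, near the sham means of 7.05 and 5.54. Each of these comparisons was made directly between I30 and the other group, since all 3 treatments share the sham hearts.

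**Figure D2:**
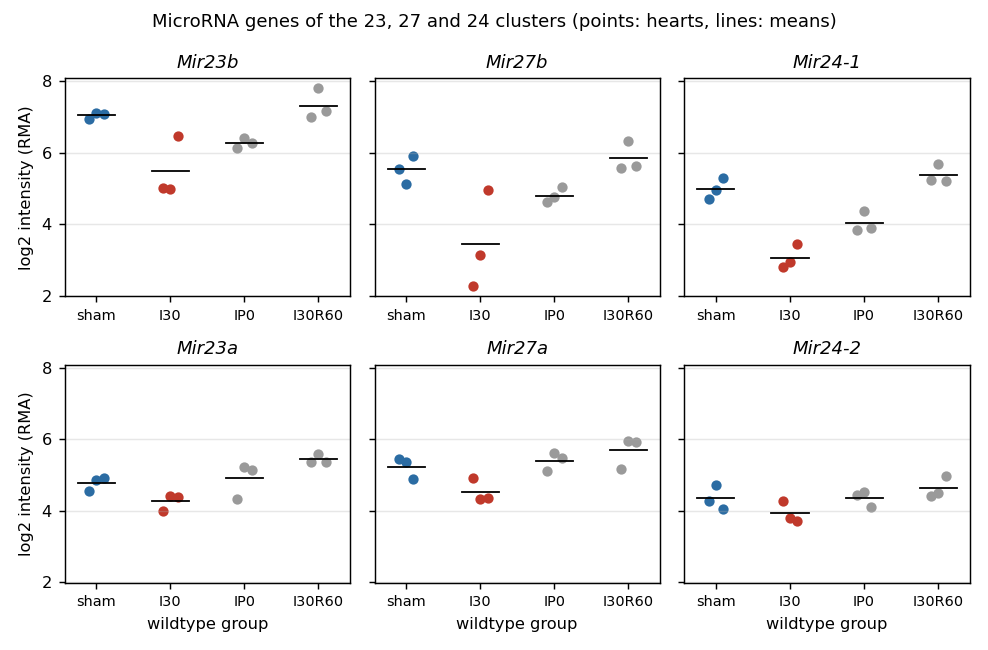
Log2 intensity of the 6 microRNA genes of the 23, 27 and 24 clusters in the 4 wildtype groups, with a point for each heart and a line at each mean (upper row chromosome 13, lower row chromosome 8). The I30 means of 5.49, 3.45 and 3.07 in the upper row are the lowest of the 4 groups.

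Mir30e, Mir126a and Mir107 fell as well. Mir30e, in the gene Nfyc, had values of 5.60, 5.53 and 5.33 in sham hearts and 3.63, 4.04 and 4.00 in I30 hearts, a fall of 1.60 (standard error 0.35, adjusted p = 0.0239). Mir126a, whose microRNA is abundant in endothelial cells, had values of 5.03, 4.12 and 4.59 against 3.06, 3.36 and 2.93, a fall of 1.47 (standard error 0.26, adjusted p = 0.00987). Mir107 had values of 4.13, 4.78 and 4.75 against 3.55, 3.57 and 3.37, a fall of 1.05 (standard error 0.19, adjusted p = 0.0105). The hearts of the groups were well separated in each. The transcripts around them had smaller differences: Nfyc had a difference of -0.10 (adjusted p = 0.618) and Egfl7 one of -0.13 (adjusted p = 0.574), whereas Pank1, which makes the precursor of coenzyme A, fell by 0.37 (adjusted p = 0.0423). The call of Mir126a was lost without sham replicate 1, and that of Mir30e without sham replicate 1, 2 or 3 or I30 replicate 1 (adjusted p between 0.0508 and 0.101).

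The 3 microRNA genes that rose were Mir1a-2, Mir676 and Mir384. Mir1a-2, which encodes miR-1, a microRNA of muscle, had values of 2.48, 2.39 and 2.76 in sham hearts and 3.56, 3.70 and 3.42 in I30 hearts, a rise of 1.02 (standard error 0.20, adjusted p = 0.0164). Its level was higher still after IP0, by 1.30 (adjusted p = 0.0026), and lower after I30R60, with a mean of 2.20 and a difference of 1.36 from I30 (adjusted p = 0.000387). Mir1a-1, the other gene of miR-1, had a difference of 0.80 that did not pass (standard error 0.31, adjusted p = 0.166), and so 1 of 9 heart muscle microRNA genes was called. The call of Mir1a-2 was lost without sham replicate 1 or 2 (adjusted p = 0.0762 and 0.0567). Mir676 rose by 0.70 and Mir384 by 0.42, both from sham means under 3, so that miR-30e-5p and miR-384-5p, which share a seed, come from genes that changed in opposite directions. With each array forced to the same distribution (quantile normalization), neither Mir676 nor Mir384 was called (adjusted p = 0.163 and 0.173). Over all 307 microRNA genes the median change was 0.08, and it was -0.01 with quantile normalization.

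Small nucleolar RNAs guide the chemical modification of ribosomal RNA and are cut from introns of their host transcripts. Snord14e had values of 7.05, 7.37 and 6.93 in sham hearts and 8.38, 8.18 and 8.30 in I30 hearts, a rise of 1.17 (standard error 0.19, adjusted p = 0.00725). It lies within Hspa8, the constitutive heat shock cognate protein, whose own value differed by 0.02 (standard error 0.08, adjusted p = 0.924). Snord42b fell by 0.81 (adjusted p = 0.0178), Snord16a by 0.61 (adjusted p = 0.0393) and Snord33 by 0.50 (adjusted p = 0.0319), within the ribosomal protein genes Rpl23a, Rpl4 and Rpl13a, none of which was called (adjusted p = 0.991, 0.807 and 1.0). These 3 calls were each lost without sham replicate 1, with adjusted p values of 0.103, 0.14 and 0.119. In all, 1 of 59 measured small nucleolar RNA genes rose and 3 fell (6.78% called, against 2.39% of all genes tested), and 44 had negative differences, with a median of -0.24. The I30 value of Snord14e was lower than after I30R60 by 1.09 (adjusted p = 0.00191).

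Some genes of fatty acid use fell. Of 22 PPAR-alpha target genes none rose and 5 fell (22.7%, against 1.18% of all genes called lower), Ehhadh, Ucp3, Cpt1a, Plin2 and Cidea. Of the 22 genes 19 had negative differences, with a median of -0.21, also -0.21 with quantile normalization. With each array scaled to the same median absolute deviation the median was 0.06, where all genes had a median of 0.11. Ehhadh, the bifunctional enzyme of peroxisomal beta-oxidation, had values of 7.45, 7.81 and 7.33 in sham hearts and 5.96, 6.13 and 5.86 in I30 hearts, a fall of 1.54 (standard error 0.20, adjusted p = 0.00189). Ucp3, an uncoupling protein of muscle mitochondria, had values of 8.89, 9.10 and 8.74 against 7.12, 7.75 and 6.91, a fall of 1.65 (standard error 0.35, adjusted p = 0.0207). Ehhadh was thus 2.92-fold and Ucp3 3.14-fold lower in the ischemic hearts, with no overlap between the groups. Cpt1a, the enzyme that loads fatty acids for transport into mitochondria, had values of 9.02, 9.09 and 8.96 against 8.34, 8.61 and 8.17, a fall of 0.65 (standard error 0.11, adjusted p = 0.00862). The target with the largest difference among those not called was Angptl4, a circulating inhibitor of lipoprotein lipase, with -0.75 (standard error 0.37, adjusted p = 0.273), and Pdk4, a kinase that inhibits pyruvate dehydrogenase, had -0.64 (standard error 0.18, adjusted p = 0.0566).

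The call of Ucp3 was lost without sham replicate 1 or 2 or I30 replicate 1 or 3, with falls of 1.66, 1.56, 1.58 and 1.48 and adjusted p values of 0.0821, 0.0649, 0.0646 and 0.0558. The calls of Ehhadh, Cpt1a and Plin2 were kept whichever of the 6 arrays was left out. In the mitochondrial beta-oxidation list all 27 measured genes had negative differences, but only Cpt1a was called (3.7%, against 2.39% of all genes tested). The lowest of the others was Acad10, an acyl-CoA dehydrogenase, at -0.38 (standard error 0.17, adjusted p = 0.214). The median was -0.12, -0.10 with quantile normalization and 0.39 with the scaling to the median absolute deviation. With that scaling other lists of high level moved up too, the sarcomere genes from -0.04 to 0.54 and the cytoplasmic ribosomal protein genes from 0.035 to 0.49. Of 19 peroxisomal genes Ehhadh alone was called (5.26%). None of 20 genes of the tricarboxylic acid cycle and none of 35 subunits of respiratory complex I was called. Their medians were -0.06 and -0.02 (-0.03 and -0.01 with quantile normalization, 0.53 and 0.50 with the scaling to the median absolute deviation).

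The lipid droplet genes held the most falls of any pathway list, 7 of 32 genes, and 25% of the list was called, against 2.39% of all genes tested. Plin2, which coats lipid droplets in muscle, had values of 9.77, 9.66 and 9.54 in sham hearts and 9.03, 9.13 and 9.01 in I30 hearts, a fall of 0.60 (standard error 0.10, adjusted p = 0.00785). The droplet protein Cidea fell by 0.49, and its call was lost without sham replicate 1, 2 or 3 or I30 replicate 1 or 3. The enzymes that build triglycerides, Gpam, Agpat2 and Gpat3, fell by 0.46, 0.52 and 0.47 (adjusted p = 0.0424, 0.0328 and 0.0228), and Mgll, which completes their breakdown, fell by 0.39 (adjusted p = 0.0475). Fabp4, the fatty acid binding protein of fat and endothelial cells, fell by 0.43 (adjusted p = 0.0165). Its difference was -0.41 (adjusted p = 0.0386) with quantile normalization, but 0.07 (adjusted p = 0.788) with the scaling to the median absolute deviation. Pnpla3, a lipid droplet enzyme, was the only member that rose, with values of 4.46, 4.29 and 4.06 against 5.00, 5.28 and 4.68 (0.71, standard error 0.18, adjusted p = 0.041). The median of the list was -0.07, -0.06 with quantile normalization and 0.19 with the scaling to the median absolute deviation. The calls of Gpam, Agpat2, Gpat3, Mgll and Pnpla3 were all lost without sham replicate 1, with adjusted p values of 0.11, 0.157, 0.0904, 0.187 and 0.0834, and each also without at least 3 of the other 5 arrays of the comparison. The call of Fabp4 was lost without sham replicate 1 or 3. With quantile normalization 2 genes of this list were called.

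Ppp1r3c rose among the genes of sugar storage. It encodes a subunit that directs protein phosphatase 1 to glycogen and favours glycogen synthesis. It had values of 8.40, 8.16 and 8.13 in sham hearts and 9.47, 9.40 and 9.57 in I30 hearts, a rise of 1.25 (standard error 0.17, adjusted p = 0.00206), with little spread in either group. It was the only one called of the 27 glycogen genes of the list (3.7%, against 2.39% of all genes tested). The list does not hold Gys2, the glycogen synthase of liver, which was looked up after its value was seen and rose by 0.50 (standard error 0.10, adjusted p = 0.0202) from a low sham mean of 2.06. Its relatives Ppp1r3d, Ppp1r3g and Ppp1r3a had differences of -0.45, -0.43 and 0.25 that did not pass, and neither did Phkg1, a subunit of the kinase that activates glycogen breakdown (-0.58, adjusted p = 0.108). Of 28 genes of glycolysis and lactate only Pdp2, a phosphatase that activates pyruvate dehydrogenase, was called, with a fall of 0.48 (adjusted p = 0.049), lost without any one of the sham hearts or I30 replicate 1 or 3 (adjusted p between 0.0764 and 0.22). None of 29 targets of the hypoxia-inducible factors was called, with changes between -0.98 (Hmox1, adjusted p = 0.135) and 0.47 (Pfkfb3, adjusted p = 0.287).

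Some antioxidant genes fell, those of glutathione synthesis among them. Srxn1, sulfiredoxin, had values of 7.25, 7.16 and 7.40 in sham hearts and 6.34, 6.19 and 6.33 in I30 hearts, a fall of 0.98 (standard error 0.13, adjusted p = 0.00206). Gclm and Gclc, the modifier and catalytic subunits of the enzyme that limits glutathione synthesis, fell too. The fall was 0.93 for Gclm (standard error 0.12, adjusted p = 0.00189), and for Gclc it was 0.70 (standard error 0.15, adjusted p = 0.0239). Gclm had values of 8.30, 8.59 and 8.29 against 7.70, 7.41 and 7.31, again without overlap. Of 27 antioxidant genes these 3 fell (11.1%, against 1.18% of all genes called lower) and none rose. The median was -0.15 (-0.09 with quantile normalization, 0.33 with the scaling to the median absolute deviation). Hmox1 at -0.98 and Txnrd1 at -0.38 (adjusted p = 0.108) did not pass. Gsta3, a glutathione transferase, had the largest positive difference, 0.73 (adjusted p = 0.0824). Sqstm1, an autophagy receptor that binds the Nrf2 inhibitor Keap1, is not in the antioxidant list and fell by 0.54 (standard error 0.09, adjusted p = 0.00873). It belongs to a list of 26 muscle atrophy and autophagy genes, of which 2 fell (7.69%, against 1.18% of all genes called lower). The other was Gabarapl1, with a fall of 0.59 and a call lost without any one of the 6 arrays. The calls of Srxn1, Gclm and Sqstm1 were kept whichever of the 6 arrays was left out, and that of Gclc was lost without sham replicate 1, 2 or 3 or I30 replicate 2 (adjusted p between 0.0538 and 0.0827).

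The promoters of 5 of these genes are shown because Gclm and Srxn1, and Ucp3 and Cpt1a, fell with other members of their lists and Ppp1r3c was the called member of the glycogen list, and letters of known binding elements can be looked for in them. Each run spans 250 bases before to 50 bases after a transcription start in RefSeq, build GRCm38.p6, written in the direction of the gene. Capitals mark TGACNNNGC, the core of the antioxidant response element, in Gclm at chr3:122245307-122245606 (+) and Srxn1 at chr2:152105274-152105573 (+), AGGTCA, the core site of nuclear receptors such as PPAR-alpha, in Ucp3 at chr7:100472741-100473040 (+) and Cpt1a at chr19:3323051-3323350 (+), and CACGTG, the E-box of the clock factors, in Ppp1r3c at chr19:36736555-36736854 (-).
Gclm: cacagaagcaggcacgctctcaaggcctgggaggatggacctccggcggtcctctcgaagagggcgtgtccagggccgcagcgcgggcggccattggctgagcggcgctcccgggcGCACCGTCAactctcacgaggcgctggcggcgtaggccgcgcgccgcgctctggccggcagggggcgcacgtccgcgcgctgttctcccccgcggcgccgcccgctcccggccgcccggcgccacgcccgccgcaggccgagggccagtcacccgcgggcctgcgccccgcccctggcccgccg
Srxn1: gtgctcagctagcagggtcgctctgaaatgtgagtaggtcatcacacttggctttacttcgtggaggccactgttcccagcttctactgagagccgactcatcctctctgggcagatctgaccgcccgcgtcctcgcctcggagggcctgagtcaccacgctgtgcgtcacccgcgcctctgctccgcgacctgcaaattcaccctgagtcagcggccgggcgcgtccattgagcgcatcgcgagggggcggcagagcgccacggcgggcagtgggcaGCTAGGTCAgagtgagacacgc
Ucp3: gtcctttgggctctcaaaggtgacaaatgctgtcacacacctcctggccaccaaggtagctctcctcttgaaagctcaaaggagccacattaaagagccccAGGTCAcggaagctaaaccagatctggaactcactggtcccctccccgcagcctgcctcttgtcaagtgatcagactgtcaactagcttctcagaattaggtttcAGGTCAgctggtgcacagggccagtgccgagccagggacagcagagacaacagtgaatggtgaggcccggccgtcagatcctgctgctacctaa
Cpt1a: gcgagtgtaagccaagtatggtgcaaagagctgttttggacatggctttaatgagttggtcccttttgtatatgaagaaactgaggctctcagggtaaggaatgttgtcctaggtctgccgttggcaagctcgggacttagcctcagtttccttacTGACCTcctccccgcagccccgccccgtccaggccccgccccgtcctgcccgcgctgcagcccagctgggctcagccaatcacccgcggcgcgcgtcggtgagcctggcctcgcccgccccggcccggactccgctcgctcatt
Ppp1r3c: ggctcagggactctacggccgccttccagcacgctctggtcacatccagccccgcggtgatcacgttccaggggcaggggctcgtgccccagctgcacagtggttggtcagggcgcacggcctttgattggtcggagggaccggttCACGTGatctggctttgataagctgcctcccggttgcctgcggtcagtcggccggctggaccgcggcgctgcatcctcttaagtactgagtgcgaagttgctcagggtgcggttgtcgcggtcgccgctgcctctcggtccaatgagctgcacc

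Each motif was searched on both strands, and the match of Srxn1 overlaps an AGGTCA. TGACNNNGC stood in 15.4% of the promoters of 14749 tested genes with an entry, in 13.3% of 173 called rises and in 12% of 184 called falls. CACGTG stood in 9.57% of all, in 6.94% of the rises and in 13.6% of the falls. AGGTCA stood in 16.4% of all, in 24.9% of the rises and in 17.9% of the falls. These shares describe short windows at the start site and say nothing of binding. Among the other members, Plin2 holds AGGTCA and CACGTG, Ehhadh holds TGACNNNGC but no AGGTCA, and Atf3, Jun and Sqstm1 hold none of the 3.

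Of the 10 measured AP-1 genes, 2 rose, Atf3 and Jun, a larger share than the 1.2% of all genes called higher, and 8 of the 10 had positive differences, with a median of 0.38. Atf3 had values of 7.48, 7.93 and 6.80 in sham hearts and 9.75, 8.60 and 9.26 in I30 hearts, a rise of 1.80 (standard error 0.28, adjusted p = 0.00556). Jun had values of 8.63, 8.63 and 8.08 against 9.59, 9.15 and 9.57, a rise of 0.99 (standard error 0.18, adjusted p = 0.00987). Fos had a difference of 1.29, larger than that of Jun but with a standard error of 0.36, and did not pass (adjusted p = 0.0582). Junb, Fosl2 and Fosb had differences of 0.37, 0.48 and 0.38 with adjusted p values of 0.351, 0.149 and 0.699.

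Of 36 other early response genes 3 rose and 2 fell, also a larger share than over all genes. Otud1, a deubiquitinase, had values of 6.12, 6.24 and 6.14 in sham hearts and 7.20, 6.80 and 8.11 in I30 hearts, a rise of 1.20 (standard error 0.25, adjusted p = 0.0208). Zfp36, which speeds the decay of inflammatory messenger RNAs, rose by 0.91 (standard error 0.19, adjusted p = 0.0198) and Ier5 by 0.90 (standard error 0.22, adjusted p = 0.0356). The zinc finger factors Egr2 and Egr3 went the other way. Egr2 had values of 7.37, 7.50 and 7.52 against 6.14, 5.91 and 6.81, a fall of 1.18 (standard error 0.24, adjusted p = 0.0167), and Egr3 had values of 5.55, 6.62 and 6.36 against 5.11, 5.07 and 5.40, a fall of 0.99 (standard error 0.24, adjusted p = 0.0343). Both Egr genes were lower after I30 than after IP0, Egr2 by 1.59 (adjusted p = 0.00235) and Egr3 by 1.64 (adjusted p = 0.00182), and lower than after I30R60, by 1.39 (adjusted p = 0.00136) and 0.94 (adjusted p = 0.0249). The calls were lost without sham replicate 1 or 3 or I30 replicate 3 for Otud1 and without sham replicate 1 or 3 or I30 replicate 1 for Egr2 and Zfp36. Those of Ier5 and Egr3 were lost without 5 and 4 of the 6 arrays of the comparison.

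The early genes that rose stood lower in I30 hearts than in hearts with reperfusion. Atf3 was lower after I30 than after I30R60 by 2.45 (standard error 0.28, adjusted p = 3.14e-05), Jun by 1.69 (adjusted p = 1.58e-05), Otud1 by 1.52 (adjusted p = 0.00119), Ier5 by 1.09 (adjusted p = 0.00537) and Zfp36 by 0.72 (adjusted p = 0.0316). Ppp1r3c did not follow this order, with means of 9.48 after I30, 9.56 after IP0 and 9.10 after I30R60 and no difference that passed (adjusted p = 0.846 and 0.21). No gene was called among 27 heat shock and co-chaperone genes, 26 genes of the integrated stress and unfolded protein response, 15 p53 targets, 36 cytokines and chemokines or 34 genes of NF-kB and innate sensing. Il6 had a difference of 0.97 (standard error 0.47, adjusted p = 0.259) and Dnaja1, a heat shock co-chaperone, one of 0.61 (standard error 0.22, adjusted p = 0.132).

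Single genes of other kinds were among the largest changes. Ror1, a receptor of Wnt5a, had values of 6.34, 6.24 and 6.22 in sham hearts and 7.30, 7.69 and 7.20 in I30 hearts, a rise of 1.13 (standard error 0.16, adjusted p = 0.00215). Fnip2, a partner of folliculin in nutrient sensing, rose by 1.01 (adjusted p = 0.0301), and Cyp1b1, a cytochrome P450 induced through the aryl hydrocarbon receptor, by 1.00 (adjusted p = 0.0239). Nfil3, a repressor that acts in the output of the circadian clock, rose by 1.00 (adjusted p = 0.0334) and was the only one of 24 clock genes called. The calls of Fnip2, Cyp1b1 and Nfil3 were all lost without sham replicate 1 or I30 replicate 1, with adjusted p values between 0.0686 and 0.106, and each also without others of the 6 arrays. Per2 itself had values of 5.33, 5.94 and 6.10 in sham hearts and 6.44, 6.31 and 5.89 in I30 hearts, which overlap, with a difference of 0.42 (standard error 0.27, adjusted p = 0.403). Per2 was higher after I30 than after IP0 by 1.1 (adjusted p = 0.0308).

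Aqp8, a water and peroxide channel, fell by 1.62 (standard error 0.36, adjusted p = 0.0258), from values of 6.54, 6.28 and 6.69 to 4.69, 4.78 and 5.17. Prnd, which encodes the prion-like protein Doppel, fell by 1.52 (standard error 0.30, adjusted p = 0.0154), from 6.75, 6.27 and 6.68 to 4.41, 5.25 and 5.47. Kcnj2, the potassium channel that holds the resting potential of ventricular muscle, fell by 0.79 (standard error 0.14, adjusted p = 0.0105), from 7.81, 8.10 and 7.93 to 7.15, 7.19 and 7.14, and was the only one of 26 potassium and sodium channel genes called, a call kept whichever of the 6 arrays was left out. Kdr, the main VEGF receptor of endothelial cells, fell by 0.94 (standard error 0.18, adjusted p = 0.0154), from 9.55, 9.01 and 9.27 to 8.08, 8.24 and 8.69. The calls of Aqp8, Prnd and Kdr were lost without sham replicate 1 or I30 replicate 1, with adjusted p values between 0.0565 and 0.097, and that of Aqp8 also without sham replicate 3 or I30 replicate 2. Fstl4, Ephx3, Pramel19 and Gm4884, whose roles are less known in heart, complete the genes of at least 2-fold change, with -1.12, -1.02, 1.26 and 1.05. Fstl4 and Ephx3 lay outside the rule for naming genes and were added after their values were seen.

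The 27 genes of at least 2-fold change were not equally firm. For 10 of them, Scgb1a1, Sftpc, Atf3, Ppp1r3c, Snord14e, Ror1, Gm4884, Mir24-1, Ehhadh and Mir107, the call was kept whichever one of the 12 wildtype and Per2-/- sham and I30 arrays was left out. The other 17 were all lost without sham replicate 1, with adjusted p values between 0.0507 and 0.166. Sham replicate 1 held atrial transcripts, with a log2 value of 8.24 for Myl7, the atrial myosin light chain, against 5.22 and 3.73 in the other sham hearts and 2.99 to 3.64 in the I30 hearts. No atrial marker was called, and Myl7 had a difference of -2.43 (standard error 1.64, adjusted p = 0.43). Without sham replicates 1 and 2 only 1 sham heart was left. The signs of the 449 changes could not turn there, since the groups do not overlap in any of these genes. The part of atrial tissue in the other calls was not tested.

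Lung transcripts were the largest rises of all. Scgb1a1, the secretory protein of airway club cells, had values of 2.53, 2.67 and 2.58 in the sham hearts and 7.26, 5.22 and 4.45 in the I30 hearts, a rise of 3.05 (standard error 0.47, adjusted p = 0.00556). Sftpc, the surfactant protein of alveolar cells, had values of 2.76, 2.82 and 2.67 against 6.72, 5.49 and 4.22, a rise of 2.73 (standard error 0.36, adjusted p = 0.00189). In both genes I30 replicate 1 was highest and I30 replicate 3 lowest, and in the other 18 arrays Scgb1a1 lay between 2.39 and 4.82 and Sftpc between 2.59 and 4.09. Cyp2f2, a cytochrome P450 of club cells, rose by 1.33 (adjusted p = 0.00987), Sftpb by 0.89 (adjusted p = 0.0291) and Sftpa1 by 0.81 (adjusted p = 0.041). Thus 5 of 18 lung epithelium markers rose (27.8%, against 1.2% of all genes called higher). The calls of Sftpb and Sftpa1 were lost without sham replicate 1 or 2 or I30 replicate 1, and also without I30 replicate 2 and sham replicate 3 in turn, and that of Cyp2f2 without sham replicate 1 (adjusted p = 0.0507). The log2 of the summed linear intensities of the 18 markers was 7.76 to 7.83 in sham hearts and 9.15, 8.38 and 7.96 in I30 hearts.

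Selp, the adhesion molecule P-selectin of endothelium and platelets, had values of 3.48, 3.41 and 3.59 in sham hearts and 6.59, 5.87 and 3.82 in I30 hearts, a rise of 1.93 (standard error 0.46, adjusted p = 0.0333). This is the same order of hearts as for the lung transcripts. The neutrophil gene Retnlg had values of 7.22, 5.87 and 4.67 in the same I30 hearts and 4.11 to 4.78 in sham hearts, a difference of 1.48 that did not pass (standard error 0.50, adjusted p = 0.111). Of 21 genes of endothelial adhesion and coagulation, Selp and Adamts1, a matrix protease, rose (9.52%, against 1.2% of all genes called higher). Vcam1 at 1.21 and Icam1 at 1.07 did not pass (adjusted p = 0.0547 and 0.0552). The call of Selp was lost without any one sham heart or I30 replicate 1 or 2 (adjusted p between 0.0716 and 0.134), and so was that of Adamts1 (adjusted p between 0.065 and 0.175).

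Markers of blood and immune cells were mostly not called. Of 16 neutrophil markers 1 rose (6.25%, against 1.2% of all genes called higher), Ltf, by 0.51 (adjusted p = 0.0478, lost without any one sham heart or I30 replicate 1 or 2). Of the 16 markers 14 had positive differences, and the median was 0.48. The log2 of their summed intensities was 8.12 to 8.17 in sham hearts and 9.66, 8.75 and 8.09 in I30 hearts. The 2 erythroid markers measured, Alas2 and Slc4a1, had differences of 0.90 and 0.60 (adjusted p = 0.206 and 0.119), and their sum was 5.54 to 5.80 in sham hearts and 7.04, 6.25 and 6.20 in I30 hearts. None of 12 macrophage, 11 T and NK cell, 7 B cell or 6 platelet markers was called. Of 7 mast cell markers 1 rose (14.3%), Ms4a2, a subunit of the IgE receptor, by 0.38 (standard error 0.10, adjusted p = 0.0453). Its call was lost without any one of the 6 arrays of the comparison, and 4 of the 7 markers had negative differences. The part of lung tissue and of blood in the calls of other genes was not tested.

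Among markers of the heart's own cell types, genes of the endothelial and adipocyte lists were called. Of 13 ventricular cardiomyocyte markers none was called, with differences between -0.27 and 0.07, and the troponin gene Tnni3 had values of 13.07 to 13.18 in I30 and 13.20 to 13.27 in sham hearts. None of 28 sarcomere and 25 calcium handling genes was called. Of 12 endothelial markers Kdr and Fabp4 fell (16.7%, against 1.18% of all genes called lower), 8 had negative differences and the log2 of the summed intensities was 12.995 to 13.12 in sham hearts and 12.78 to 12.83 in I30 hearts. Of 9 adipocyte markers Fabp4 and Cidea fell (22.2%), both of which the lipid droplet list holds too. Of the 9 markers 5 had positive differences, and the median was 0.05. The log2 of the sum was 11.36 to 11.39 in sham hearts and 10.89 to 11.02 in I30 hearts. Such a sum is carried by the members of highest level, and the median sham level of the list was 3.13. Adipoq and Plin1, which define fat cells, had low sham means of 2.82 and 3.43 and differences of 0.09 and -0.21 that did not pass (adjusted p = 0.831 and 0.534). No marker of fibroblasts, smooth muscle or pericytes was called.

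**Figure D3:**
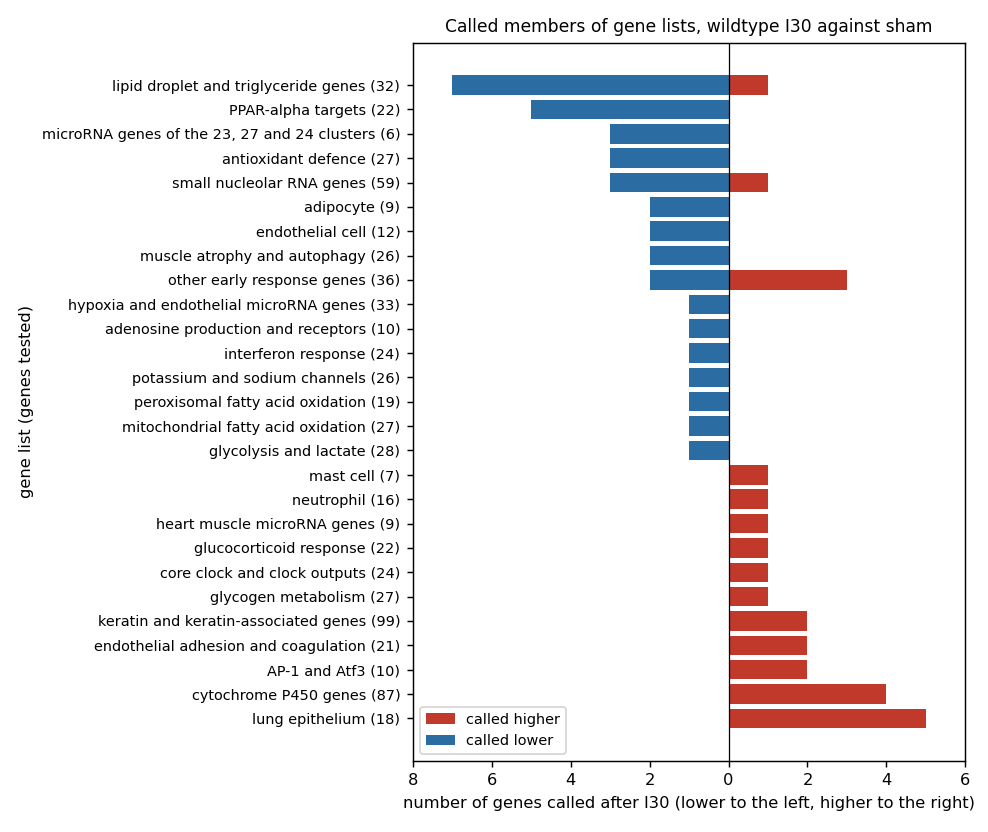
Number of called genes in each list of up to 99 genes that holds at least 1, with falls to the left, rises to the right and the number of genes tested in brackets. Lipid droplet genes, with 7 falls, and lung epithelium markers, with 5 rises, reach farthest on the 2 sides.

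Most of the called rises were transcripts of very low level. The median sham level was 2.64 for the called rises, 6.96 for the called falls and 5.20 for all genes tested, and 88.1% of the rises but 4.04% of the falls lay below the median level of all genes. With the genes divided into 5 equal groups by sham level, 116 rose and 1 fell in the lowest group, and 10 rose and 111 fell in the group next to the highest. Of 990 olfactory receptor genes, most of them at low levels, 16 rose and 1 fell (1.72% called), and 778 had positive differences. Of 169 vomeronasal receptor genes 4 rose and none fell (2.37% called), and 137 had positive differences. Over all genes tested, 2.39% were called in either direction and 1.2% called higher, and 9811 of 18820 had positive differences. The median change of the olfactory receptor genes was 0.15, and it was 0.03 with quantile normalization, where 1 of them was called.

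The arrays moved in the same way. The interquartile range of the log2 values over genes was 4.03 ± 0.05 on I30 arrays and 4.31 ± 0.07 on sham arrays (SD, n = 3 each), and the 5th percentile was 2.13 ± 0.04 against 1.99 ± 0.04. Each differed by an exact permutation p of 0.1, two-sided, the smallest that 3 arrays against 3 allow. With quantile normalization, which removes this difference in width, 104 genes were called, 63 higher and 41 lower, and 101 of them were among the 449. Of the 27 genes of at least 2-fold change 21 remained, and the 6 lost were Mir27b, Mir23b, Selp, Aqp8, Fstl4 and Ephx3. The changes of these 6 stayed about as large, with -2.10 for Mir27b, -1.48 for Mir23b, 1.93 for Selp, -1.55 for Aqp8, -1.04 for Fstl4 and -0.97 for Ephx3, and their adjusted p values were between 0.0601 and 0.111. The width is a property of whole arrays, and its part in the rises of low genes and the falls of others was not tested beyond these values.

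**Figure D4:**
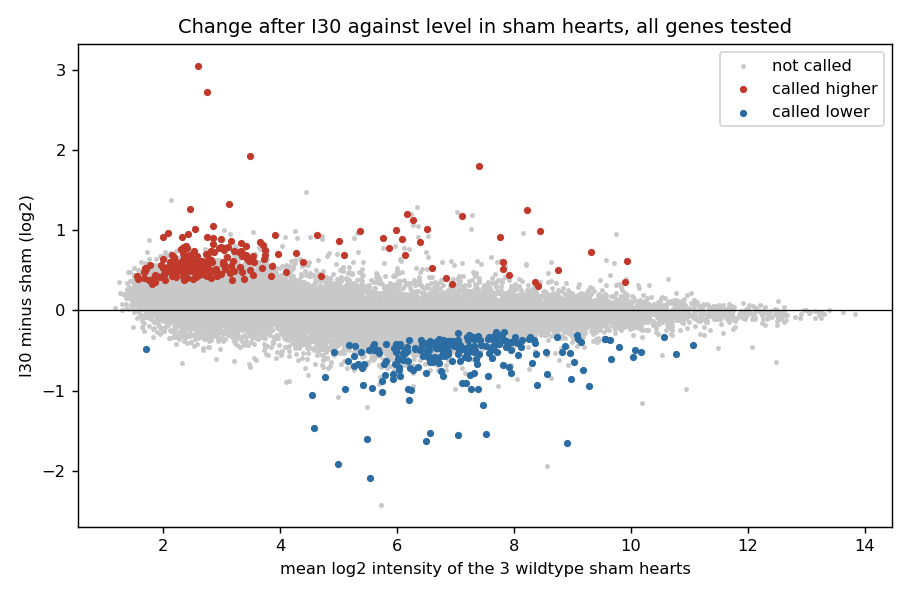
Log2 change after I30 against the mean log2 level in the 3 wildtype sham hearts for all 18820 genes tested, with called rises in red, called falls in blue and other genes in grey. Most red points lie at the left, around the median sham level of 2.64, and most blue points around 6.96.

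The 21 arrays outside each group were used to see which of the groups stood apart. The 3 sham hearts lay beyond all 21 other arrays in 8 of the 27 genes, Atf3, Ppp1r3c, Otud1, Snord14e, Ror1, Ehhadh, Aqp8 and Ucp3 (0.595% of all genes tested). The 3 I30 hearts lay beyond all 21 others in 5, Sftpc, Cyp2f2, Fstl4, Egr2 and Prnd (1.13% of all genes tested). Ehhadh, for example, was at 7.33 to 7.81 in wildtype sham hearts, at 5.86 to 6.13 in I30 hearts and at 5.53 to 6.67 in the other 18 hearts, which include the Per2-/- sham hearts. Ppp1r3c was at 8.13 to 8.40 in wildtype sham hearts and at 8.69 to 9.93 in the other 18. Of the 14 called PPAR-alpha, lipid droplet and antioxidant genes, the sham hearts lay beyond all others in 5 (35.7%), Cpt1a, Ehhadh, Fabp4, Plin2 and Ucp3, and the I30 hearts in 1, Srxn1. For the genes in which the sham hearts stood apart the I30 hearts were thus within the range of the other groups, and the sham hearts were not. The genes were chosen for differing between the 2 groups, so the counts are a description. Sham hearts of a single group carry these differences, and a property of these 3 sham hearts cannot be told apart from an effect of ischemia.

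In Per2-/- mice the response to the same ischemia can be compared without shared controls. Per2-/- sham replicate 3 held atrial transcripts, with a log2 value of 11.21 for Myl7. The other Per2-/- sham hearts had 3.09 and 3.29, and the Per2-/- I30 hearts 2.9 to 3.4. The part of atrial tissue in the Per2-/- differences was not tested. Of the 27 genes 20 had the same sign in Per2-/- hearts, where 63.2% of all genes tested had the same sign in both genotypes. No gene passed the test of the difference between the responses in limma (0.0% of genes tested, 1336 at an unadjusted p under 0.05) or in an ordinary linear model (1359 unadjusted). The 27 genes were picked in wildtype hearts, which by itself favours a larger change there, and 22 of them had an unadjusted p under 0.05 for the difference.

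The 6 microRNA genes that fell in wildtype hearts had negative differences in Per2-/- hearts too, although none was called there (adjusted p between 0.383 and 0.802). In Per2-/- hearts the difference after I30 was -1.69 for Mir27b, -1.42 for Mir24-1, -1.40 for Mir30e, -1.19 for Mir126a, -0.92 for Mir23b and -0.27 for Mir107. The 3 that rose in wildtype hearts had 0.11 for Mir1a-2, 0.30 for Mir676 and -0.08 for Mir384, none called. The wildtype response minus the Per2-/- response was -0.50 for Mir24-1 (95% interval -1.33 to 0.34) and -0.20 for Mir30e (-1.23 to 0.83), neither of which shows the responses to be equal. The genotypes lay farther apart for Mir107 and Mir23b, which had -1.05 and -1.55 in wildtype hearts. The metabolic genes had small differences in Per2-/- hearts, -0.25 for Ehhadh, -0.05 for Ucp3, 0.06 for Plin2 and -0.12 for Ppp1r3c. The difference between the responses was -1.29 for Ehhadh (95% interval -1.88 to -0.70, adjusted p = 0.371), -1.60 for Ucp3 (-2.62 to -0.58, adjusted p = 0.466) and 1.37 for Ppp1r3c (0.86 to 1.88, adjusted p = 0.11). The Per2-/- sham means were 6.48 for Ehhadh, 7.83 for Ucp3 and 9.12 for Ppp1r3c, against 7.53, 8.91 and 8.23 in wildtype sham hearts, so that these genes began nearer to the wildtype I30 level. The lung transcripts Scgb1a1 and Sftpc had differences of 0.16 and -0.22 in Per2-/- hearts, and that between the responses was 2.89 (adjusted p = 0.371) and 2.95 (adjusted p = 0.109). Both stood higher in Per2-/- than in wildtype sham hearts. Scgb1a1 had 3.76, 3.90 and 3.06 in Per2-/- sham and 4.82, 3.10 and 3.28 in Per2-/- I30 hearts, against 2.53 to 2.67 in wildtype sham. For Sftpc the values were 3.42, 4.09 and 3.15, then 3.44, 3.24 and 3.30, against 2.67 to 2.82.

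**Figure D5:**
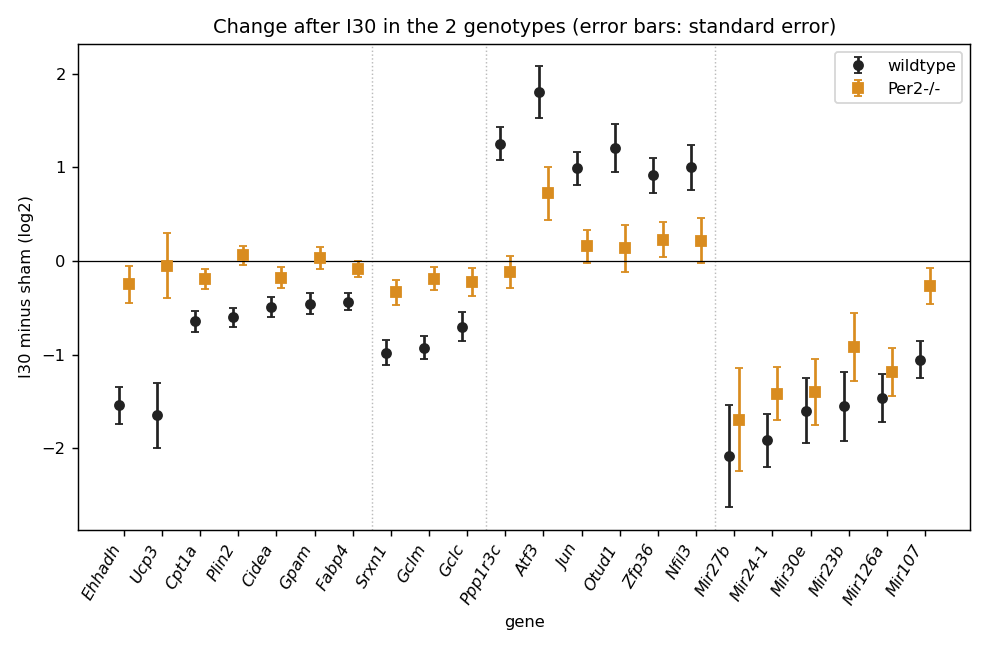
Log2 change after I30 with its standard error in wildtype hearts (circles) and Per2-/- hearts (squares) for genes of fat use, antioxidant defence, early response with Ppp1r3c, and microRNA genes, the 4 sets divided by dotted lines. The microRNA genes lie below 0 in both genotypes, with Mir24-1 at -1.92 and -1.42, and the genotypes lie farthest apart in Mir107 and Mir23b among them. Ehhadh lies at -1.54 and -0.25.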

How the data were processed

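RNA of 24 left ventricles was hybridized by the authors to mouse gene arrays, version 1.1 in the methods and 2.1 in the series' design text, on 1 plate at the same time. The deposited log2 intensities had been normalized by the authors by RMA in Partek Genomics Suite 6.6, and they carry no detection calls. Of 35555 probe sets, 21218 were paired with 1 gene symbol by the platform annotation, 1881 with several and 12456 with none listed. A gene was represented by its probe set of highest mean over all arrays, giving 18820 genes, of which 1386 had more than 1 probe set. Group means of all 8 groups were fitted with limma 3.58.1 in R 4.3.3 (16 residual degrees of freedom), and p-values were adjusted by Benjamini-Hochberg over all genes. Each array is 1 mouse, and 3 arrays per group limit the precision, with a median standard error of 0.14 on the log2 scale. On simulated data for this comparison with 18820 genes, 40% of 1.5-fold and 84% of 2-fold changes were recovered, with 12 false calls. The simulated noise was independent between arrays and held no differences of width or tissue, so these shares may not hold for the real arrays. Genes are named if they were among the 15 largest rises or 10 largest falls called, were named by the study for I30, were called members of a list (with up to 4 others of largest change), or belong to a microRNA cluster with a called member. The members and lists were chosen with earlier results of these data known. Coordinates are those of GRCm38. Figures used matplotlib 3.10.9.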

Additional observations from a re-analysis of the deposited data

Results flagged for a closer look

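Some probe sets that the comparisons did not use also passed the test after I30 in wildtype hearts. Of 12456 probe sets with no listed gene, 44 were called higher and 11 lower, with a largest rise of 2.12 on the log2 scale (probe set 10342511) and a largest fall of 2.72 (probe set 10343451). Of 1881 probe sets listed with several symbols, 7 were called higher and 12 lower, with changes between -1.17 and 0.89. They are given as values only, since no single gene can be named for them.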

How the results depend on the processing

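The number of genes called depended strongly on the setting. The main counts were 449 genes (226 higher, 223 lower), 27 of at least 2-fold, and 0 for the difference between genotypes. Fitted on the 12 wildtype arrays, 102 genes were called (53 higher, 49 lower), and on the 6 arrays of the comparison alone 9 (2 higher, 7 lower), 6 of them at least 2-fold. With each array scaled to 1 median absolute deviation 1942 were called (1820 higher, 122 lower), 47 at least 2-fold, and 3 for the genotypes. Quantile normalization gave 104 (63 higher, 41 lower) and 1 for the genotypes, and centring on the median 147 lower. Rises made up 50.3% of the calls in the main setting, 61% with centring, 93.7% with scaling and 60.6% with quantile normalization. Genes with a mean above the median of all values gave 48 higher and 1 for the genotypes. The methods' t-test, adjusted in the same way, gave 0 genes, 0 higher, 0 lower and 0 of at least 2-fold (2760 at an unadjusted p under 0.05). An adjusted p under 0.01 gave 38 (20 higher, 18 lower), 10 at least 2-fold, and one under 0.10 gave 1068 (542 higher, 526 lower) and 1 for the genotypes. Without sham replicates 1 and 2, which had high Myl7, 2 were called (2 higher, 0 lower; 1819 unadjusted), 2 at least 2-fold. For the genotypes, the trend and robust options gave 1 gene and array weights 3.

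Leaving out 1 array at a time gave 38 to 462 genes, 16 to 240 higher and 22 to 227 lower, with 14 to 42 of at least 2-fold (14 without sham replicate 1, 42 without I30 replicate 3) and 0 to 6 for the genotypes (6 without I30 replicate 3). The samples share only a number. Same-numbered I30 and sham arrays had correlations of -0.0045, -0.1235 and -0.0533, and the fit with the replicate number as a block called 421 genes (220 higher, 201 lower), 26 of at least 2-fold, and 0 for the genotypes.

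Among values of the 90 called genes named under these settings, 1393 kept direction and call and 815 kept direction alone. Ampd2 had a difference of 0.14 with the probe set of lowest mean, and Fabp4 of 0.0715 with scaling. The cause was not tested.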
